A study of Rattus norvegicus with 26 samples.

Results

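A set of 10 factors that mark pluripotent or germ cells was followed while rat multipotent adult progenitor cells (rMAPCs) were turned into smooth muscle cells (SMCs). They were *Pou5f1* (encoding Oct4), *Sox2*, *Nanog*, *Klf4*, *Klf2*, *Klf5*, *Sall4*, *Zfp42* (Rex1), *Esrrb* and *Tex19.2*. A factor was measured by the array probe that carried its gene name, and by its brightest probe where there were several. Of the 10 genes, 7 had such a probe and 6 were well above background on at least 1 array. *Nanog*, *Sall4* and *Zfp42* had no probe under their names, and the *Esrrb* probe was on no array well above background, so that these are named only. The array held 41012 gene probes in all, for 16305 named genes, and 24442 of the probes were tested.

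A pair of clones was used, each the descendants of 1 isolate, both from female Fischer rat bone marrow and both labelled as Oct4-expressing. Cl19 came from a donor aged 3 weeks and 3c3 from a donor of embryonic day 18. TGF-ß and PDGF-bb were given to both in basal rMAPC medium, and RNA of 3 replicates per clone was taken on d0 (undifferentiated), d2, d4 and d6, while 2 arrays held commercial primary SMC RNA, which the labels call rat aortic. The study's methods call the 3 replicates of a day biological. The p-values of the main fit measure the spread between these samples, pooled over all groups. For primary SMC RNA the methods say only that it was used in duplicate, not whether from separate preparations. The p-values against it need not cover the spread between SMC samples.

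Oct4 is a POU-domain protein that holds the pluripotent state of early embryonic cells, and in embryonic stem cells it binds DNA together with Sox2. Klf2, Klf4 and Klf5 are zinc-finger proteins that act in the same network but also work in adult tissues. Tex19.2 belongs to a mammalian family that restrains retrotransposons in germ cells and placenta. rMAPCs that express Oct4 also express genes of the hypoblast, the early extraembryonic layer in which Sox2 is low.

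The probes behind the main results are 60 bases long, with coordinates of the assembly rn4 as the array annotation gives them. They are given in lower case, with no part singled out. The *Pou5f1* probe lay at chr20_random:3256-3837 on the minus strand, over 582 bases of genome, the *Tex19.2* probe at chr10:110327159-110327218 on the minus strand, and the *Sox2* probe at chr2:120969725-120969784 on the plus strand.
Pou5f1: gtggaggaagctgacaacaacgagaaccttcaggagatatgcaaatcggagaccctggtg
Tex19.2: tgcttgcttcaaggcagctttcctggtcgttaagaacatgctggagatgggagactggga
Sox2: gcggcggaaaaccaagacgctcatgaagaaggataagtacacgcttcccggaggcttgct
Pseudogenes of *Pou5f1* and the paralog Tex19.1 could share sequence with their probes, and this was not tested.

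Each array had 45018 features, none of 43379 gene features was saturated, and 43.2% to 61.4% of them were well above background. The median SD between arrays of a group was 0.08 to 0.32 on the log2 scale. Negative controls read 28.3 to 44.5 on the slide of 3c3 replicate 3 and 10.9 to 14.0 on all other arrays. Over all tested probes, the array labelled Cl19 d2 replicate 1 differed from the 3c3 d2 arrays by a root mean square of 0.382 to 0.538, and from the other Cl19 d2 arrays by 0.876 and 0.917. The 3c3 d2 arrays differed from each other by 0.443 to 0.647. The main changes of Cl19 to and from d2 are therefore given with and without Cl19 d2 replicate 1, and whether it carries the wrong label was not tested.

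*Pou5f1* fell in both clones, and in the main fit it fell much further in Cl19. All values are log2 levels after quantile normalization, and their differences are log2 fold changes. In Cl19 the d0 levels were 10.31, 10.31 and 10.22. On d2 they were 8.77, 4.58 and 4.59, on d4 0.87, 2.22 and 1.08, and on d6 0.53, 2.00 and 0.85. No array of a later day reached those of d0, and on d4 and on d6 just 1 of 3 arrays was well above background.

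In 3c3 the *Pou5f1* levels were 11.47, 11.63 and 11.49 on d0. They were 8.23, 8.69 and 8.56 on d2, 7.07, 7.17 and 7.24 on d4, and 6.82, 7.49 and 7.97 on d6. All 12 of these arrays were well above background, and those of d4 and d6 overlapped. On the primary SMC arrays the probe gave 3.29 and 1.87, not well above background on either.

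From d0 to d6, *Pou5f1* fell at least 291-fold in Cl19, a bound against the lowest signal that counted as above background (fitted change -9.15 ± 0.74 SE, adjusted p = 6.2e-09). In 3c3 it fell 17.2-fold (-4.11 ± 0.74 SE, adjusted p = 1.5e-04). The difference between the clones in this change was itself past the threshold, at -5.04 ± 1.05 SE (adjusted p = 0.0019). After normexp background correction, which adds an offset of 50 to every signal, the changes were -4.07 in Cl19 and -3.49 in 3c3. The difference between the clones was then -0.58 (adjusted p = 0.58). With dim values set to the lowest signal above background it was -4.08 (adjusted p = 0.0047). Each clone was scanned on a day of its own, so that clone and scan day cannot be told apart. In bulk RNA, fewer cells with Oct4 and less *Pou5f1* RNA per cell cannot be told apart.

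Among the groups where *Pou5f1* was measured, its order was 3c3 d0, Cl19 d0, 3c3 d2, 3c3 d6, 3c3 d4 and Cl19 d2, by means of 11.53, 10.28, 8.49, 7.42, 7.16 and 5.98. Without Cl19 d2 replicate 1 the Cl19 d2 mean was 4.58. The 3c3 means of d6 and d4 differed by 0.26 ± 0.74 SE (adjusted p = 0.89), within the spread. The d0 means of the clones differed by -1.25 ± 0.74 SE (adjusted p = 0.68), although all Cl19 arrays were the lower ones. This SE is pooled over all groups, and Cl19 d2 had an SD of 2.42. The SDs of the d0 groups themselves were 0.05 in Cl19 and 0.09 in 3c3. Cl19 d4, Cl19 d6 and the primary SMC arrays were too dim to be ordered.

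**Figure D1:**
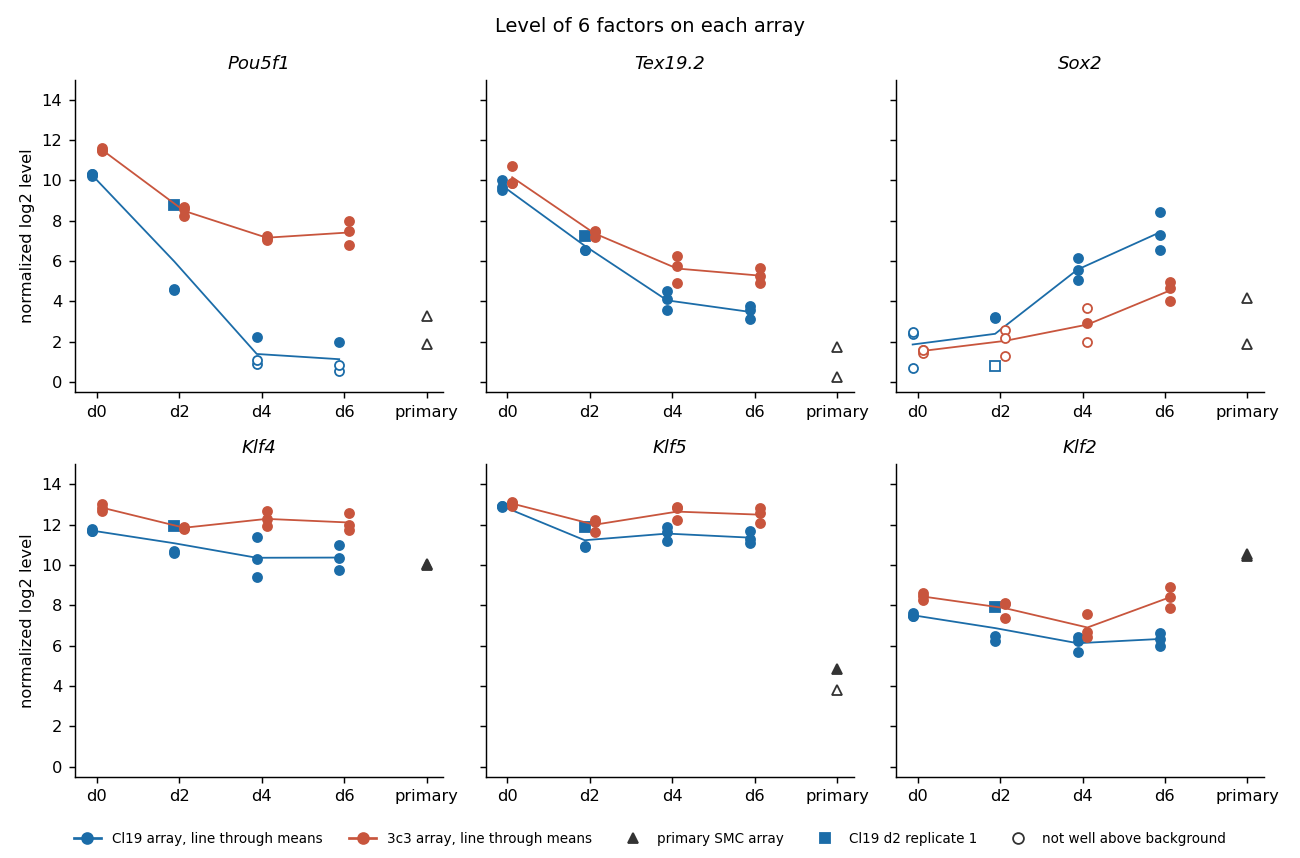
Normalized log2 level (y axis) of 6 factors on each array of d0, d2, d4 and d6 and of primary SMC RNA (x axis), with open symbols where the probe was not well above background and lines through the means of 3 arrays. *Pou5f1* ended at 6.82 to 7.97 in 3c3 and at 0.53 to 2.00 in Cl19, while *Sox2* rose and *Klf5* was low in primary SMCs only.

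The *Pou5f1* fall had begun by d2 in both clones. In Cl19 it measured -4.30 ± 0.74 SE from d0 to d2 (19.7-fold, adjusted p = 2.7e-04) and at least 14.3-fold more from d2 to d4 (adjusted p = 2.9e-04). From d4 to d6 both groups were near background. In 3c3 it fell by 3.04 ± 0.74 SE to d2 (8.22-fold, adjusted p = 0.0066), which was 74.0% of the whole change on the log2 scale. That call is lost without the slide of 3c3 replicate 3, where the change was -3.09 ± 1.00 SE with an adjusted p of 0.067. The changes on the 3 slides were -3.24, -2.95 and -2.93. With the 3c3 arrays fitted alone, limma kept the d2 call (-3.04 ± 0.25 SE, adjusted p = 3.8e-05). The d2 to d4 change of -1.33 ± 0.74 SE did not pass (adjusted p = 0.28), although each of 3 slides fell. A limma fit on the 3c3 arrays alone called it (-1.33 ± 0.25 SE, adjusted p = 0.015).

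The Cl19 d2 array that stood apart had a *Pou5f1* level of 8.77, above all 3c3 d2 arrays, whereas the other Cl19 d2 arrays had 4.58 and 4.59. Without it the Cl19 change to d2 was -5.70 ± 0.44 SE (adjusted p = 2.2e-08) and the d2 to d4 change -3.20 (adjusted p = 1.4e-04). The difference between the clones in the change to d2 was then -2.66 (adjusted p = 0.014) instead of -1.26 (adjusted p = 1.0).

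*Tex19.2*, the germline-type gene, fell in both clones. Its Cl19 levels were 10.04, 9.67 and 9.52 on d0, 7.22, 6.53 and 6.54 on d2, 3.56, 4.50 and 4.10 on d4, and 3.12, 3.56 and 3.76 on d6. Its 3c3 levels were 10.73, 9.89 and 9.86 on d0, 7.49, 7.18 and 7.44 on d2, 6.24, 4.89 and 5.76 on d4, and 5.64, 5.26 and 4.92 on d6. All 24 rMAPC arrays were well above background, and both primary SMC arrays, at 0.27 and 1.73, were not. Within a clone no arrays of d0, d2 and d4 overlapped, while those of d4 and d6 did.

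The *Tex19.2* fall from d0 to d6 was 76.7-fold in Cl19 (-6.26 ± 0.38 SE, adjusted p = 1.5e-10) and 29.5-fold in 3c3 (-4.88 ± 0.38 SE, adjusted p = 6.1e-09). On d2 it had changed by -2.98 in Cl19 (7.88-fold, adjusted p = 9.9e-06) and by -2.79 in 3c3 (6.91-fold, adjusted p = 2.5e-05). These were 47.6% and 57.1% of the whole change on the log2 scale, not shares of the RNA lost. Without Cl19 d2 replicate 1, the Cl19 change was -3.21 (adjusted p = 1.1e-05), 51.2% of the whole log2 change. A second step followed from d2 to d4, of -2.71 in Cl19 (adjusted p = 6.8e-05, or -2.48 with 7.3e-04 without Cl19 d2 replicate 1) and -1.74 in 3c3 (adjusted p = 0.0078). The 3c3 step did not pass without 3c3 d4 replicate 2 (-1.37, adjusted p = 0.056) or without the slide of 3c3 replicate 3 (-1.77, adjusted p = 0.097). The clones differed in the *Tex19.2* change to d6 by -1.38 ± 0.53 SE, which did not pass (adjusted p = 0.086).

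*Sox2* moved the other way and rose in both clones. No d0 array of either clone was well above background, at 2.36, 0.71 and 2.50 in Cl19 and at 1.61, 1.42 and 1.59 in 3c3. Cl19 then had 0.78, 3.23 and 3.17 on d2, with 2 of 3 arrays above background, 5.06, 6.13 and 5.56 on d4, and 8.44, 7.28 and 6.56 on d6. 3c3 had 2.60, 2.20 and 1.31 on d2, 1.96, 2.93 and 3.66 on d4 with 1 of 3 above background, and 4.98, 4.01 and 4.64 on d6. Every d6 array of a clone lay above all of its d4 arrays. The limma steps from d4 to d6 did not pass, at 1.85 ± 0.69 SE in Cl19 and 1.69 ± 0.69 SE in 3c3 (adjusted p = 0.13 each). Both passed with dim values set to the lowest signal above background (1.85 with 0.012 and 1.51 with 0.031).

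From d0 to d6, *Sox2* rose at least 31.0-fold in Cl19 (fitted change 5.57 ± 0.69 SE, adjusted p = 1.5e-06) and at least 3.67-fold in 3c3 (3.00 ± 0.69 SE, adjusted p = 0.0014). The 3c3 rise is 0.32 with an adjusted p of 0.19 after normexp. The step of Cl19 from d2 to d4, at least 6.17-fold, passed (adjusted p = 0.0031), as it did without Cl19 d2 replicate 1 (2.38, adjusted p = 0.028), but not by the methods' t-test (3.19, Benjamini-Hochberg adjusted p = 0.15). The 2 clones' *Sox2* changes differed by 2.57 ± 0.98 SE (adjusted p = 0.081), and by 3.08 (adjusted p = 0.0012) with dim values set to the lowest signal above background. In primary SMC RNA *Sox2* was not well above background, at 1.87 and 4.17.

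For *Tex19.2* and *Sox2*, the factors with an entry that were called on d6 in both clones, the 250 bases before the start are shown from RefSeq (GRCr8), chr10:106880672-106880921 on the minus strand and chr2:119464881-119465130 on the plus strand. Capitals mark 5 motifs searched on both strands: ATGCAAAT (the octamer of Oct4), CAGAC (a Smad box), GGGCGG (a GC box), CCAAT and CACCC (a Klf box).
Tex19.2: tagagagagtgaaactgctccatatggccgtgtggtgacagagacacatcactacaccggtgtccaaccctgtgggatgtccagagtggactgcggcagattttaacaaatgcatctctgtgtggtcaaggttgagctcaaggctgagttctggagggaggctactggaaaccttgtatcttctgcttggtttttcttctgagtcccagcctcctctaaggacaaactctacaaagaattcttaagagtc
Sox2: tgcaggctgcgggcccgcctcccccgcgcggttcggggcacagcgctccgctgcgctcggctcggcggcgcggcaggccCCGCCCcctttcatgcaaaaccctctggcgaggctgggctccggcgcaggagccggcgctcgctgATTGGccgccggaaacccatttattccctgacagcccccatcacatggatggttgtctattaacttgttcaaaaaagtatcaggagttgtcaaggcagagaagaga
The *Sox2* window held 1 GC box, whose first base is at -171, and 1 CCAAT at -106, both on the reverse strand. None of the 5 motifs was in the *Tex19.2* or the *Klf4* window, and that of *Klf5* held 3 CCAAT and 2 CACCC. Of 33469 RefSeq windows of this length, 1.56% held the octamer, 42.9% CAGAC, 30.5% GGGCGG, 34.0% CCAAT and 49.2% CACCC. Of the 10 genes, 7 had an entry, and *Pou5f1*, *Klf2* and *Sall4* did not.

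The 3 Krüppel-like factors stayed well above background on all rMAPC arrays. Their probes lay at chr5:73446994-73447053 on the minus strand (*Klf4*), chr15:83118108-83118167 on the plus strand (*Klf5*) and chr16:17942544-17942603 on the minus strand (*Klf2*), in rn4. *Klf4*, a factor that also acts in smooth muscle cells, had d0 levels of 11.79, 11.67 and 11.67 in Cl19 and 13.03, 12.69 and 12.85 in 3c3. On d2 they were 11.95, 10.61 and 10.69 in Cl19 and 11.81, 11.83 and 11.90 in 3c3, and on d4 11.38, 9.43 and 10.28 in Cl19 and 11.95, 12.66 and 12.26 in 3c3. On d6 they were 10.34, 11.00 and 9.75 in Cl19 and 11.75, 12.60 and 11.97 in 3c3, all below those of d0. The Cl19 fall was 2.53-fold (-1.34 ± 0.40 SE, adjusted p = 0.0088), and it was lost without Cl19 d6 replicate 3 (-1.04, adjusted p = 0.057). The 3c3 value of -0.74 ± 0.40 SE did not pass (adjusted p = 0.14), but did under scaling by the 75th percentile (-1.07, adjusted p = 0.032). The Cl19 change to d2 was -0.62 (adjusted p = 0.31), or -1.06 without Cl19 d2 replicate 1 (adjusted p = 0.065).

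*Klf5*, a factor of epithelial and stem cells, fell by d2 in both clones. It stood at 12.92, 12.95 and 12.90 on d0 in Cl19 and at 11.90, 10.94 and 10.87 on d2. In 3c3 it went from 12.95, 13.12 and 13.08 to 11.65, 12.22 and 12.12. On d4 it was 11.87, 11.17 and 11.65 in Cl19 and 12.24, 12.89 and 12.82 in 3c3. On d6 it was 11.28, 11.69 and 11.11 in Cl19 and 12.10, 12.84 and 12.56 in 3c3. The change to d2 was -1.69 ± 0.30 SE in Cl19 (adjusted p = 3.0e-04), or -2.02 without Cl19 d2 replicate 1 (adjusted p = 3.6e-05), and -1.06 ± 0.30 SE in 3c3 (adjusted p = 0.016).

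By d6, *Klf5* was 2.96-fold lower than on d0 in Cl19 (adjusted p = 1.7e-04), whereas the 3c3 value of -0.55 ± 0.30 SE did not pass (adjusted p = 0.13). The 3c3 call on d2 was lost without 3c3 d2 replicate 1 (-0.88, adjusted p = 0.085) and without the slide of 3c3 replicate 3 (-1.10, adjusted p = 0.1). A second, dimmer *Klf5* probe gave -1.95 ± 0.69 SE from d0 to d6 in Cl19 (adjusted p = 0.022) and -0.97 ± 0.69 SE in 3c3 (adjusted p = 0.26).

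*Klf2*, best known from the endothelium, rose from d4 to d6 in 3c3. Its 3c3 levels were 8.44, 8.28 and 8.61 on d0, 8.09, 7.38 and 8.10 on d2, 7.55, 6.45 and 6.68 on d4, and 7.86, 8.92 and 8.42 on d6. The rise from d4 to d6 was 1.51 ± 0.37 SE (adjusted p = 0.014), higher on 3 of 3 slides. It did not pass without 3c3 d4 replicate 2 (1.28, adjusted p = 0.074), 3c3 d6 replicate 2 (1.25, adjusted p = 0.08), 3c3 d4 replicate 3 (1.40, adjusted p = 0.051) or the slide of 3c3 replicate 3 (1.39, adjusted p = 0.14).

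In Cl19, *Klf2* went from 7.62, 7.46 and 7.45 on d0 to 7.92, 6.23 and 6.46 on d2, 6.45, 5.68 and 6.22 on d4, and 6.65, 6.35 and 5.98 on d6. The change from d0 to d6 was -1.18 ± 0.37 SE (adjusted p = 0.012), which was lost without Cl19 d6 replicate 3 (-1.01, adjusted p = 0.055). The d0 to d2 change of -0.64 (adjusted p = 0.25) was -1.16 without Cl19 d2 replicate 1 (adjusted p = 0.014). In 3c3 the d0 to d6 change was -0.04 ± 0.37 SE (adjusted p = 0.94), and the difference between the clones of -1.14 ± 0.53 SE did not pass (adjusted p = 0.17).

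Counted over the 6 measured factors, 5 fell and 1 rose from d0 to d6 in Cl19, where 30.3% of all tested probes fell and 22.0% rose. Without Cl19 d6 replicate 3, 3 fell. In 3c3, 2 fell and 1 rose, against 28.6% and 19.7%. Their median change was -1.45 in Cl19 and -0.65 in 3c3, and that of all tested probes -0.20 and -0.21, or 0.10 and 0.09 without normalization between arrays. In the change to d6, 1 of the 6 differed between the clones (17.4% of all probes), and in the change to d2 none did, with none at an unadjusted p under 0.05 either (0.323%). Without Cl19 d2 replicate 1, *Pou5f1* differed in the change to d2, as given above.

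By step, 3 of 6 fell from d0 to d2 in each clone and none rose. Among all probes 11.5% fell and 11.2% rose in Cl19, and 9.27% and 9.80% in 3c3. Without Cl19 d2 replicate 1, 4 fell in Cl19, and without the slide of 3c3 replicate 3 just 1 fell in 3c3. From d2 to d4, 2 fell and 1 rose in Cl19 (11.3% and 9.34%), and 1 fell in 3c3 (4.39%, with 4.33% higher), or none without the slide of 3c3 replicate 3. From d4 to d6 limma called 0 of 6 in Cl19, with 1 higher at an unadjusted p under 0.05 (3.51% lower and 3.44% higher among all probes), and 1 rose in 3c3 (5.91% higher and 4.58% lower), or none without that slide.

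**Figure D2:**
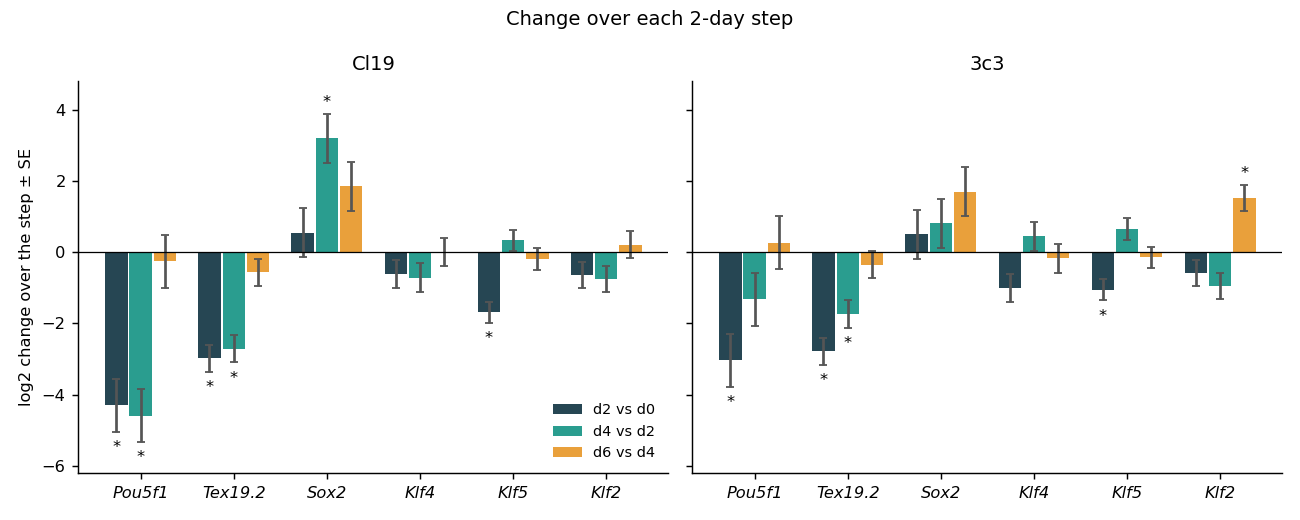
Log2 change (y axis) of the 6 factors over each 2-day step in Cl19 and 3c3, as bars from the limma fit of all arrays with SE and asterisks at an adjusted p under 0.05. The *Pou5f1* and *Tex19.2* bars of d2 against d0 are negative in both clones (-4.30 and -2.98 in Cl19, -3.04 and -2.79 in 3c3), whereas those of d6 against d4 lie within 0.57 of zero.

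On d0 limma called none of the 6 factors between Cl19 and 3c3, and 2 were lower in Cl19 at an unadjusted p under 0.05, *Klf4* by -1.15 ± 0.40 SE (adjusted p = 0.18) and *Klf2* by -0.93 ± 0.37 SE (adjusted p = 0.29). Among all tested probes 3.07% differed. A difference that misses the threshold does not show equal levels.

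Primary SMC RNA had neither *Pou5f1*, *Sox2* nor *Tex19.2* above background on its 2 arrays, but it had *Klf4* and *Klf2*. The *Klf2* levels of 10.55 and 10.45 were above every rMAPC array. They exceeded d6 of Cl19 by 4.17 ± 0.42 SE (adjusted p = 3.0e-08) and d6 of 3c3 by 2.10 ± 0.42 SE (4.28-fold, adjusted p = 1.7e-04). Without normalization between arrays the second *Klf2* value was -0.16, while the median of all probes there was -2.09 instead of -0.13.

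*Klf4* in primary SMC RNA, at 10.05 and 10.00, differed from d6 of Cl19 by -0.34 ± 0.45 SE (adjusted p = 0.51) and from d6 of 3c3 by -2.09 ± 0.45 SE (adjusted p = 3.9e-04). *Klf5*, at 4.84 and 3.82 with 1 of 2 arrays above background, was at least 130-fold lower than on d6 of Cl19 (adjusted p = 3.4e-13) and at least 287-fold lower than on d6 of 3c3 (adjusted p = 3.1e-14). *Pou5f1* was at least 12.6-fold lower than in 3c3 d6 (adjusted p = 3.3e-05), and against Cl19 d6 both sides were near background. *Sox2* was at least 10.5-fold lower than on d6 of Cl19 (adjusted p = 4.5e-05), and its difference from d6 of 3c3 did not pass (-1.53 ± 0.78 SE, adjusted p = 0.085). *Tex19.2* was at least 2.83-fold lower than on d6 of 3c3 (adjusted p = 2.2e-08). Against d6 of Cl19 the *Tex19.2* fit gave -2.48 (adjusted p = 3.0e-05), but 0.29 (adjusted p = 0.48) with dim values set to the lowest signal above background.

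Against d6 of Cl19, primary SMC RNA had 3 of 6 factors lower and 1 higher (38.6% and 32.8% of all probes), and against d6 of 3c3 4 lower and 1 higher (38.1% and 33.4%). Against d0, 4 were lower and 1 higher for each clone (41.5% and 31.2% in Cl19, 41.6% and 31.5% in 3c3). These comparisons share the 2 primary arrays, which lay on a slide and scan day of their own, so that RNA source and scan day cannot be told apart. Whether these 2 arrays held separate RNA preparations is not stated. Their median SD was 0.08, against 0.18 to 0.32 in the rMAPC groups.

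**Figure D3:**
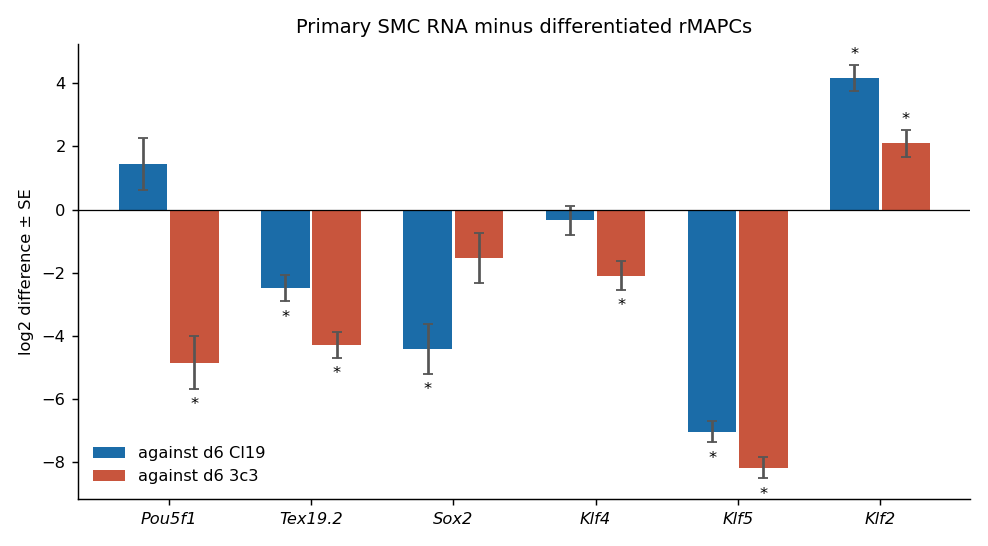
Log2 difference (y axis) of primary SMC RNA from d6 of Cl19 and of 3c3 for the 6 factors, with SE from the limma fit and asterisks at an adjusted p under 0.05. *Klf2* lies above zero at 4.17 and 2.10 and *Klf5* far below at -7.03 and -8.17, and bars of probes that were not above background show fitted values, not bounds.

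A pair of probes without a member's name was looked up by description after the values were seen, since *Sall4* and *Zfp42* had no probe of their own. One matched a mouse Sall4b transcript in the array annotation and had no coordinates. The other, at chr16:52157850-52157909 on the plus strand in rn4, was described as similar to zinc finger protein 42, or REX-1. They are shown because these descriptions are all that ties them to the genes.
Sall4b-annotated: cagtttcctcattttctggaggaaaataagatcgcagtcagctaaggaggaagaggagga
Zfp42-similar: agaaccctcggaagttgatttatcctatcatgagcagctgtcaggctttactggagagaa
Sall4 is a zinc-finger factor of stem and germ cells, and Rex1 is a marker of naive pluripotent cells.

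The Sall4b-annotated probe stayed bright and fell late. In Cl19 it read 13.94, 13.86 and 13.59 on d0, 13.89, 13.85 and 13.91 on d2, 13.77, 13.54 and 13.05 on d4, and 12.41, 12.23 and 12.97 on d6. In 3c3 it read 14.02, 14.16 and 14.03 on d0, 13.72, 14.01 and 13.80 on d2, 13.75, 13.92 and 13.72 on d4, and 12.85, 13.04 and 13.03 on d6. The d4 to d6 step was -0.92 ± 0.18 SE in Cl19 (adjusted p = 0.0036) and -0.83 ± 0.18 SE in 3c3 (adjusted p = 0.0063), and the d0 to d2 step was not called in either. On primary SMC arrays it read 0.20 and 0.19, not well above background.

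The Zfp42-similar probe was higher on d6 than on d0. It read 10.31, 10.24 and 10.29 on d0, 11.09, 11.32 and 11.46 on d2, 11.52, 11.60 and 11.40 on d4, and 11.07, 10.27 and 11.71 on d6 in Cl19. In 3c3 it read 10.79, 10.60 and 10.84 on d0, 11.11, 11.23 and 11.26 on d2, 11.38, 11.09 and 11.32 on d4, and 11.50, 11.28 and 11.24 on d6. The changes from d0 to d6 were 0.74 ± 0.22 SE (adjusted p = 0.0092) and 0.60 ± 0.22 SE (adjusted p = 0.035), and for this Zfp42-like probe they were 0.47 (adjusted p = 0.11) and 0.34 (adjusted p = 0.25) under scaling by the 75th percentile. The Cl19 change to d2 was 1.01 (adjusted p = 0.0025), or 1.11 without Cl19 d2 replicate 1 (adjusted p = 0.0028). The Cl19 call was lost without Cl19 d6 replicate 3 (0.39, adjusted p = 0.082), and the 3c3 call was lost in 5 of 6 fits that left out 1 d0 or d6 array. Both primary SMC arrays read 0.16, not well above background.

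**Figure D4:**
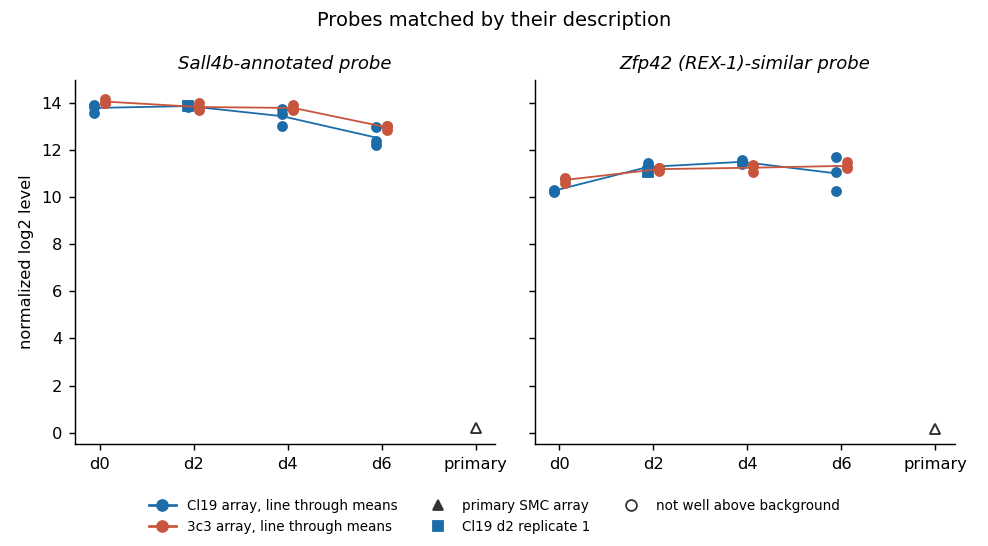
Normalized log2 level (y axis) of the Sall4b-annotated and the Zfp42-similar probe on each array by day and in primary SMC RNA (x axis), with lines through the means of 3 arrays and open symbols where not well above background. The first drops between d4 and d6 (means 13.45 to 12.54 in Cl19 and 13.80 to 12.97 in 3c3), the second stays between 10.24 and 11.71, and both are at background in primary SMCs.

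Of 39 other names from the pluripotency network, 25 had a tested probe. In Cl19, 15 were lower on d6 and 5 higher, and in 3c3 13 and 4, with medians of -0.96 and -0.56. LIF signalling sustains mouse and rat pluripotent cells. *Lifr*, its receptor, fell at least 79.3-fold in Cl19 and changed by -2.70 in 3c3 (adjusted p = 6.6e-08 and 0.0018), and *Socs3*, its feedback inhibitor, changed by -4.34 and -3.03 (adjusted p = 1.2e-10 and 2.1e-08). The naive-state factors *Tfcp2l1* (at least 8.58-fold and at least 7.85-fold lower) and *Gbx2* (-2.98 and -3.34) fell as well.

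Some of these genes rose in both clones. *Otx2*, a factor of primed epiblast and anterior neural tissue, went from a mean of 6.78 to 14.45 in Cl19 and from 5.89 to 10.90 in 3c3 (adjusted p = 1.2e-06 and 2.1e-04). *Eras*, a Ras-family protein of embryonic stem cells, rose by 1.37 and 2.04, and *Sall1* from means of 9.32 to 10.79 and of 9.75 to 11.25.

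The germline list of 46 names had 22 tested, with 7 higher and 6 lower in Cl19 and 8 and 7 in 3c3 (medians -0.42 and -0.38). *Prdm1*, which encodes the Blimp1 repressor that specifies germ cells and is also used in other lineages, rose at least 71.0-fold and at least 8.82-fold (adjusted p = 1.4e-07 and 3.4e-05). *Nanos3*, an RNA-binding protein of primordial germ cells, rose at least 5.96-fold in Cl19. *Kitlg*, the ligand of Kit, rose by 2.34 and 2.89, and its receptor *Kit* by 0.90 and 3.19. *Dppa3* (Stella) fell at least 9.99-fold and at least 17.7-fold, *Ddx4* (Vasa) at least 7.38-fold and at least 2.35-fold, and the helicase gene *Ddx25* changed by -0.54 and -0.98.

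Of 14 other Krüppel-like factors 12 were tested, with 4 higher and 2 lower in Cl19 and 6 and 2 in 3c3 (medians 0.16 and 0.45). *Klf6* rose by 2.04 and 1.82, *Klf7* by 2.18 and 1.31, *Klf9* by 2.04 and 1.07, and *Klf10*, a gene induced by TGF-ß, by 0.71 and 0.63. *Klf8* fell at least 5.66-fold and at least 2.56-fold.

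Among 21 other Sox and Sall factors 14 were tested, with 6 higher and 3 lower in Cl19 and 6 and 5 in 3c3 (medians 0.11 and 0.24). *Sox11*, a SoxC factor, rose at least 80.4-fold in Cl19, *Sox10* of the neural crest by 6.84 and 4.06, *Sox4* by 4.93 and 4.40, and *Sox5* by 1.53 and 3.32. Of the hypoblast factors, *Sox17* changed by -4.12 (Cl19) and -1.84 (3c3) and *Sox7* by -2.41 and -0.94. *Sox13* changed by -3.02 in Cl19 and fell at least 2.17-fold in 3c3. For all 4 lists the share of all tested probes is that given above for d6 against d0, and the lists were chosen with earlier results known.

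**Figure D5:**
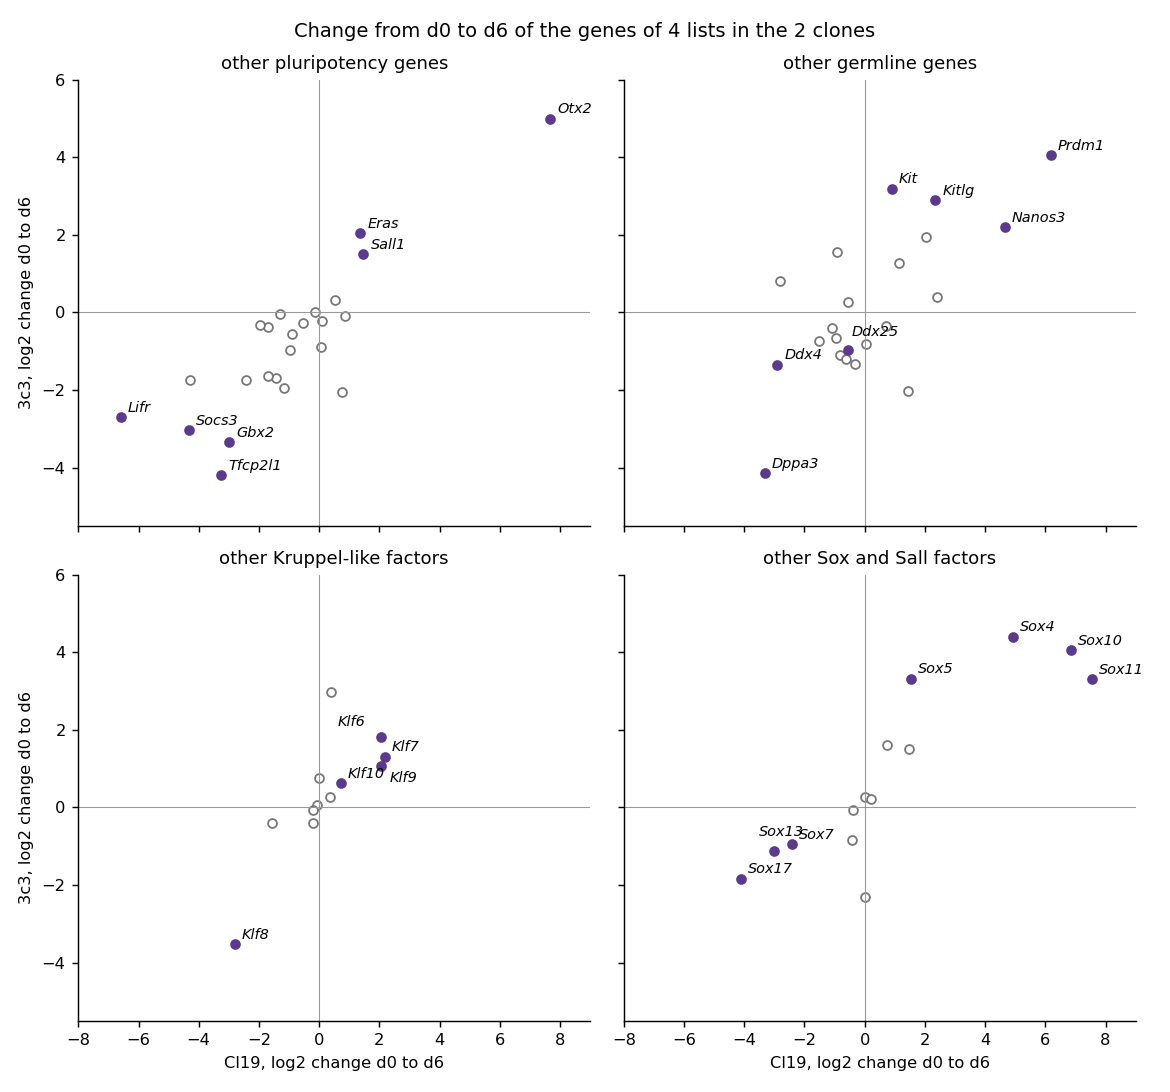
Log2 change from d0 to d6 in Cl19 (x axis) and 3c3 (y axis) of tested genes of 4 lists, with filled and named points for up to 4 genes per direction that passed in both clones. *Otx2* lies at 7.67 on the x axis and *Lifr* at -6.59 and -2.70, and values of probes near background are fitted values, not bounds.

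Markers moved along with these factors. The 10 hypoblast-type markers were nearly all measured on d0 (9 well above background on every array in each clone). By d6, 8 of 9 tested were lower and 1 higher in Cl19, and 4 lower and 1 higher in 3c3. For all marker counts of d6 against d0, 30.3% of all tested probes were lower and 22.0% higher in Cl19. In 3c3 28.6% were lower and 19.7% higher. The log2 of the summed level of the hypoblast-type markers was 17.54 to 17.68 on d0 and 15.75 to 16.04 on d6 in Cl19. In 3c3 it was 17.45 to 17.61 on d0 and 17.08 to 17.32 on d6. *Sparc*, the brightest tested one, weighs most in these sums. Its means on d0 and d6 were 16.72 and 15.23 in Cl19 and 16.55 and 16.57 in 3c3, and 16.17 in primary SMC RNA. Of 9 smooth muscle markers 7 rose in each clone. *Myocd*, a defining coactivator, was well above background on 0 of 3 d0 arrays and 1 of 3 d6 arrays in Cl19, and on 1 of 3 and 0 of 3 in 3c3, where its fitted change was -1.20 (adjusted p = 0.004). In primary SMC RNA all 9 were well above background. Of 5 fibroblast markers 3 rose in Cl19 (summed level 12.28 to 12.42 on d0 and 13.23 to 13.90 on d6) and 1 in 3c3 (12.15 to 12.35 on d0 and 10.59 to 11.73 on d6). *Pdgfra*, which is on the hypoblast-type list too, was the brightest of the 5 on d0 (means 12.34 in Cl19 and 12.25 in 3c3). It was lower on d6 in both clones (-1.93 and -1.77), whereas *Col1a1* rose by 7.27 and 3.53. All 5 were well above background in primary SMC RNA. Of 6 endothelial markers, 3 were lower in Cl19 (*Tek* at least 16.9-fold, *Pecam1* at least 12.4-fold, *Tie1* -1.88), while in 3c3 *Pecam1* was lower (at least 3.36-fold) and *Tie1* higher (1.54). Their summed level was 7.93 to 8.20 on d0 and 5.83 to 6.44 on d6 in Cl19, and 7.20 to 7.47 and 7.56 to 7.79 in 3c3. Of 4 neuron and glia markers, 3 were tested and *Tubb3* was higher in Cl19 (2.16, adjusted p = 0.0044). Their summed level was 8.79 to 9.12 on d0 and 10.71 to 11.29 on d6 in Cl19, and 9.28 to 9.99 and 7.67 to 9.88 in 3c3. No blood marker was called in either clone, and the 1 adipocyte marker tested was higher in both. The part of these cell populations in the *Pou5f1* and *Sox2* results was not tested.

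For each factor, the 3 named genes with the most similar profile were found by Pearson's r over the 24 rMAPC arrays, which share slides and days, among 11690 named genes. *Pou5f1* was most like *Fcgr1a*, *Hdgfl1* and *Pdzd4* (r = 0.98 each), all not above background in primary SMC RNA. *Tex19.2* was most like *Tfap2e* (0.98), *Itgae* (0.97) and *Wipf1* (0.97). Of these, *Itgae* and *Wipf1* were above background on both primary SMC arrays and *Tfap2e* on 1. *Sox2* was most like *Chia* (0.96), *Wnt5b* (0.96) and *Zswim4* (0.95), of which *Wnt5b* and *Zswim4* were above background on both primary arrays and *Chia* on neither. *Klf5* was nearest to *Camlg* (0.94), *Slk* (0.93) and *Slc7a1* (0.93), *Klf4* to *Tbx2* (0.94), *Pepd* (0.93) and *Gkap1* (0.92), and *Klf2* to *Hap1* (0.92), *Prss36* (0.90) and *Creb3l2* (0.89). The genes nearest to these Krüppel-like factors were all above background on both primary arrays.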

How the data were processed

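RNA of 2 rMAPC clones on 4 days (3 arrays each) and of primary SMCs (2 arrays) was hybridised by the authors to 1-colour Agilent rat arrays. Per the file headers and the submitters' processing notes, Agilent Feature Extraction 10.1.1.1 gave the deposited intensity values, background-subtracted and detrended. The authors' deposited log2 table equals log2 of these intensities within 5.2e-14 and is not normalized between arrays, so it served as an alternative.

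Here log2 processed signals of 43379 gene features were quantile-normalized over 26 arrays, features with outlier marks were left out, and features of a probe were averaged (41012 probes). The 24442 probes with signal well above background throughout 1 or more of the 9 groups were fitted with limma 3.58.1 in R 4.3.3, with 1 mean per group and Benjamini-Hochberg adjustment per comparison at 0.05. The number of arrays limits the precision. "At least" folds compare the brighter group's mean with, per array of the dim group, the higher of the lowest signal well above background and the probe's own value. A probe could read above that lowest signal and still not be marked as above background, so it is not a detection limit of each probe.

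Gene names came from the files and a RefSeq table of GRCr8 (21253 probes with a symbol). Named list genes were up to 4 per direction with the largest changes that passed in both clones. One such gene is not reported here, though the counts and medians of its list include it. The members and lists were chosen with earlier results of these data known. A slide carried d0 to d6 of a single replicate, which pairs the days: deviations correlated above 0.1 in 34 of 36 within-slide pairs (lowest 0.06). The 7 slides were scanned on 3 days, 1 for each clone and 1 for primary SMCs. The fit was tested on simulated data with independent normal noise, 50 of 24442 probes changed at each size and no other differences. For d6 against d0 in Cl19 it recovered 100% and 96% of changes of 4 and -4 on the log2 scale, and 70% and 80% of changes of 2 and -2. The real data had more changed probes and correlated arrays of a slide, so these rates need not hold there. Alternatives were scaling, background correction, the filter, a floor, blocks, the methods' t-test and left-out arrays.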

Additional observations from a re-analysis of the deposited data

Results flagged for a closer look

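The fall of *Pou5f1* from d0 to d6 differed between the clones by -5.04 on the log2 scale (Cl19 minus 3c3, ± 1.05 SE, adjusted p = 0.0019 by limma), with all 3 slides of each clone falling. It was picked out because the test of the difference itself passed. The Cl19 d6 level was above background on 1 of 3 arrays, so that the fitted size is not a measured level, and clone and scan day cannot be told apart.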

How the results depend on the processing

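Of 1735 alternative values for single genes, 1658 kept their direction and side of the threshold, 39 lost a call, 36 gained one and 2 reversed, and 543 of 592 counts stayed within 1.5 times. The replicate block, which pairs the days of a slide, changed no call in 80 values (*Pou5f1* clone difference to d6 -5.04, adjusted p = 0.0033). The cause of the changes that follow was not tested.

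With normexp, the d6 clone difference was -0.58 for *Pou5f1* (lost), 1.31 for *Sox2* and -1.02 for *Klf5* (both gained), the *Sox2* rise in 3c3 was 0.32 (lost, so that 0 factors rose), and *Tex19.2* in primary SMCs against Cl19 d6 was -0.25 (lost). With a floor at the lowest signal above background the last value was 0.29 (reversed), and the clone differences of *Sox2* (3.08) and *Tex19.2* (-1.38) passed.

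Scaling by the 75th percentile gave calls for 3c3 *Klf4* on d2 (-1.16) and d6 (-1.07), 3c3 *Klf5* on d6 (-0.89, so that 4 factors fell) and *Pou5f1* in primary SMCs against Cl19 d6 (2.20, so that 2 were higher). Without normalization between arrays, primary SMCs differed from d6 of 3c3 by -0.16 for *Klf2* (reversed, 0 higher) and -3.23 for *Sox2* (gained), and from d6 of Cl19 by -2.59 for *Klf4* (gained).

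Fitting 3c3 alone called *Klf4* on d2 (-1.01) and d6 (-0.74), *Pou5f1* from d2 to d4 (-1.33) and *Sox2* from d4 to d6 (1.69). The methods' t-test called 3c3 *Klf4* on d2 (-1.01) and lost Cl19 d2 *Pou5f1* (-4.30) and *Klf5* (-1.69), leaving 1 factor lower. It also lost every d2 to d4 call (Cl19 *Pou5f1* -4.59, *Sox2* 3.19 and *Tex19.2* -2.71, and 3c3 *Tex19.2* -1.74), the d4 to d6 calls of 3c3 *Klf2* (1.51) and of the Sall4b-like probe (-0.92 and -0.83), and the Cl19 d6 call of the Zfp42-like probe (0.74). Without the slide of 3c3 replicate 3 the d2 values of *Pou5f1* (-3.09) and *Klf5* (-1.10) were lost, leaving 1 lower, and the mean of both *Klf5* probes gave -1.15 (lost).

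Leaving out single arrays gave -2.67 to -0.38 for *Sox2* in primary SMCs against 3c3 d6, -1.66 to -1.04 for *Klf4* and -1.34 to -1.01 for *Klf2* in Cl19 on d6, -1.16 to -0.32 for *Klf2* in Cl19 on d2, -1.17 to -0.88 for *Klf5* in 3c3 on d2, -1.66 to -1.20 for the *Tex19.2* clone difference to d6, and 3 to 5 factors lower on d6 in Cl19.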
